A study of Homo sapiens with 6 samples.

Results

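The airway secretory proteins described here are 10 genes of 60504 in the table: BPIFA1, BPIFB1, SCGB1A1, SCGB3A1, SCGB3A2, AGR2, AGR3, SLPI, PIGR and TFF3. They were chosen by gene name; mean TPM would have chosen between rows sharing a name, but no name was on more than 1 row. The list was drawn up with earlier results of the same libraries known, so the counts below describe these genes and are no evidence about airway secretory genes as a class. The RNA came from HCC827, an established line of human lung adenocarcinoma cells that carries mutant EGFR. All 6 libraries are of this single line, which stands for no other tumour, in RPMI medium with fetal bovine serum, penicillin and streptomycin, and the labels name no drug treatment. The 2D group (3 libraries) grew as a monolayer in flasks, with 1000000 cells passaged into each flask and culture for 4 to 6 days. The 3D group (3 libraries) grew as tumoroids in a droplet of growth factor reduced Matrigel (a gel of basement membrane proteins), with 50000 cells in each droplet and culture for 12 to 16 days or until confluent. A ROCK inhibitor was present with the Dispase that freed tumoroids from the gel when they were passaged. Geometry, gel, culture time and cells seeded differed together, and their effects cannot be told apart.

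The lining of the airways is kept moist and clean by secretory cells. Club cells release secretoglobins, goblet cells and submucosal glands release mucins and trefoil peptides, and both release lipid-binding and protease-inhibiting defence proteins. Mucins and other proteins rich in disulfide bonds are folded in the endoplasmic reticulum with the help of dedicated disulfide isomerases, and secretory antibodies are carried through the epithelium by a receptor that is then shed into the mucus. Lung adenocarcinoma arises from the distal lung epithelium and can keep parts of these programmes.

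The values are TPM, a transcript abundance corrected for length and scaled to the same total in every library. Sequencing depth cannot be read from TPM and is unknown here, and an entry of 0 says only that the gene is listed at 0. None of 10 genes that every cell uses was listed at 0 (the lowest value was 7.81 TPM, for TBP). Genes listed above 0 numbered 24926 to 26387 in 3D and 23908 to 24583 in 2D. Pearson correlations of log2(TPM + 1) across genes, which are not independent replicates, were 0.957 to 0.980 within groups and 0.919 to 0.948 between groups. The second principal component, with 19.5% of the variance, set the libraries numbered 3 apart from the others of their groups, most of all 2D replicate 3. Results of the 10 genes that rest on those libraries are given with and without them. Among the other genes some, such as SPDEF and TXNDC12, are given with all 6 libraries only. The epithelial markers EPCAM, KRT7, KRT8, KRT18, KRT19, CDH1, NKX2-1, NAPSA and EGFR were above 0 in every library, as the label of a lung adenocarcinoma line requires. Nothing in the labels states that replicates are separate cultures; the p-values therefore reflect only the variation among these samples, which may be technical.

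The 10 genes ranged from abundant to absent. AGR2, SLPI and PIGR had at least 1 TPM in all 6 libraries, AGR3 in 5, BPIFA1 in the 3 libraries of 3D, and BPIFB1 in 1 library of 3D. The secretoglobins SCGB1A1, SCGB3A1 and SCGB3A2 stayed under 1 TPM everywhere, and TFF3 was listed at 0 throughout. By mean over the 6 libraries the order was AGR2 (737 TPM), PIGR (63.1), SLPI (54.6), BPIFA1 (21.1), AGR3 (17.8) and BPIFB1 (1.23). The ranges of neighbours in that order overlapped, apart from AGR2, whose lowest library (322.49 TPM) lay above the highest of PIGR (166.44 TPM). The 10 genes together held 824 to 1186 TPM in 3D and 372 to 1084 TPM in 2D, and AGR2 alone made up 62.9% to 91.3% of that sum.

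**Figure D1:**
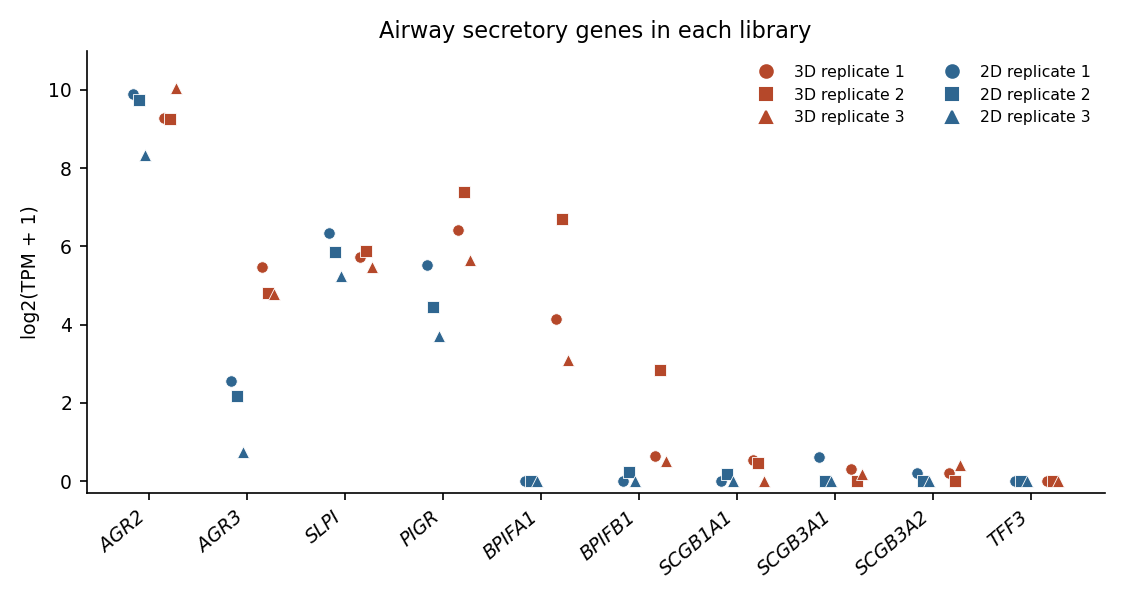
Expression of the 10 genes in each library, with log2(TPM + 1) on the vertical axis and 1 point for each library (red for 3D, blue for 2D, symbol for the replicate number). AGR3, PIGR, BPIFA1 and BPIFB1 lie higher in every 3D library than in any 2D library, AGR2 and SLPI overlap, and the last 4 genes lie near or at 0.

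Of the 6 genes that passed the filter of a mean of at least 1 TPM, 2 were called higher in 3D (AGR3 and BPIFA1), none was called lower and 4 did not pass the test (limma, Benjamini-Hochberg adjusted p under 0.05 over all 15042 genes tested). Over all tested genes 10.2% were called higher and 2.12% lower. BPIFA1 and BPIFB1 passed the filter only through the group in which they were high, so the count of 2 supports nothing further, and with no filter it was 1, AGR3. In 4 of the 6 genes every 3D library lay above every 2D library, and such separation was seen in 27.3% of all tested genes, with the reverse order in 9.4%. The 4 genes include BPIFA1 and BPIFB1, which were tested only because of their 3D values, so this count supports nothing further either. The counts over all genes were 1536 higher and 319 lower, with 4727 genes at an unadjusted p under 0.05. With libraries rescaled by median ratios they were 971 and 612, and the median log2 fold change moved from 0.12 to -0.01.

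AGR2 and AGR3, neighbouring paralogs of the protein disulfide isomerase family, did not move together between the cultures. AGR2 resides in the endoplasmic reticulum of mucus-secreting cells, where it is needed for mucin production, and AGR3 is best known from ciliated airway cells. Both lie on the minus strand of chromosome 7, AGR2 at 16791811 to 16833433 and AGR3 at 16859405 to 16881987, 25971 bases apart (GENCODE 29, GRCh38). The pseudogene RAD17P1 is annotated within AGR3 on the same strand, and the division of reads between the 2 is unknown.

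AGR3 had 43.76, 26.87 and 26.77 TPM in 3D replicates 1 to 3 and 4.94, 3.52 and 0.69 TPM in 2D replicates 1 to 3. The groups did not overlap, and the lowest 3D library was above the highest 2D library by more than the spread within either group. The gene rose from 3.05 ± 2.16 to 32.5 ± 9.78 TPM (mean ± SD, n = 3 each; log2 fold change by limma 3.19, SE of 0.45, adjusted p = 0.00731). The call held under all 15 alternative settings, with log2 fold changes from 2.23 (pseudocount of 5) to 3.70 (pseudocount of 0.1) and adjusted p from 0.00152 to 0.0364 (limma). Without 2D replicate 3, whose value was the lowest, the log2 fold change was 2.65.

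AGR2 had 625.28, 611.16 and 1058.05 TPM in 3D replicates 1 to 3 and 953.57, 854.14 and 322.49 TPM in 2D replicates 1 to 3. The highest 3D library and the lowest 2D library were both numbered 3, and the groups overlapped. The means were 765 ± 254 TPM in 3D and 710 ± 339 TPM in 2D (SD, n = 3 each), a log2 fold change of 0.21 (limma, SE 0.42, 95% interval -0.77 to 1.19, adjusted p = 0.767). Its direction rested on the libraries numbered 3. The log2 fold change was -0.05 without 3D replicate 3, -0.29 without 2D replicate 3, and -0.55 without both, and in the last of these, chosen after seeing the data, AGR2 was called lower in 3D (limma, adjusted p = 0.015). In 2D replicate 3 both AGR2 and AGR3 were at most 1/2 of the next 2D library. The same condition held for 5.70% of all tested genes. That share also counts genes listed at 0 both there and in the next library, BPIFA1 and BPIFB1 among them. It therefore does not tell how many genes dropped in 2D replicate 3. AGR2 ranked among the 322 most abundant genes in every library, and among the 188 most abundant in every library but 2D replicate 3.

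The ratio of AGR2 to AGR3, both in TPM and so per length, was 14.3, 22.7 and 39.5 in 3D replicates 1 to 3 and 193, 243 and 467 in 2D replicates 1 to 3. Every 3D library had a lower ratio than every 2D library, and within each group the library numbered 3 had the highest. A ratio within a library shows unequal change and does not show that either gene was constant. The other protein-coding genes within 200 kb of AGR3 were AHR, the aryl hydrocarbon receptor, TSPAN13, a tetraspanin, and BZW2. AHR rose from 62.2 to 120.0 TPM (log2 fold change by limma 0.94, adjusted p = 0.00865), while TSPAN13 had 83.4 TPM in 3D and 62.3 in 2D (adjusted p = 0.137) and BZW2 had 90.3 and 85.5 TPM (adjusted p = 0.682).

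**Figure D2:**
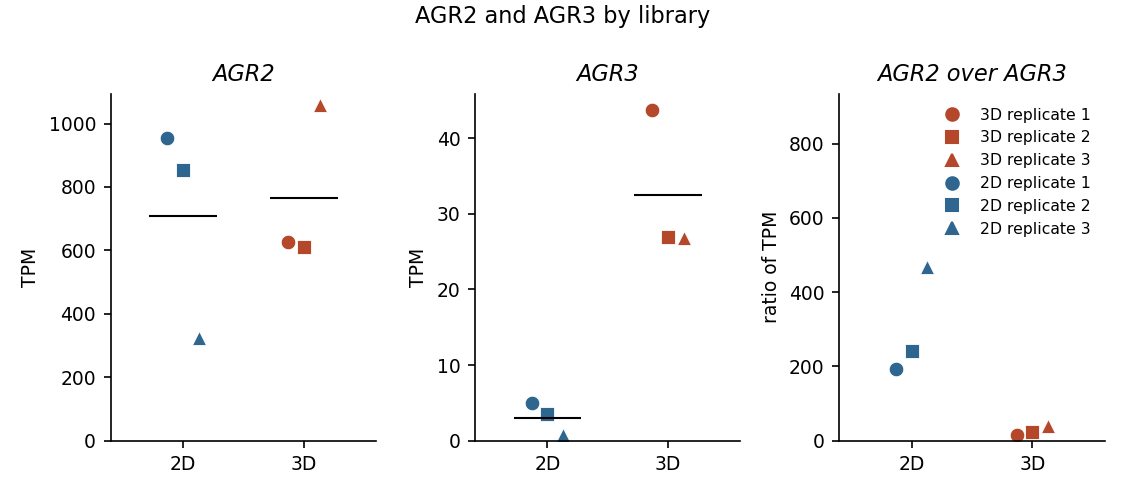
AGR2 and AGR3 in TPM and the ratio of AGR2 to AGR3, by group on the horizontal axis, with 1 point for each library and, for the 2 genes, lines at the group means. The AGR2 groups overlap between 611.16 and 953.57 TPM, while the ratio is at most 39.5 in 3D and at least 193 in 2D.

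Because these neighbours differed in level and in response, the 250 bases before each start site are shown, in capitals where a TATA box (TATAAA, searched on both strands) was found. The sequences are RefSeq's on GRCh38.p14, minus strand, chr7:16805000-16805249 for AGR2 and chr7:16881984-16882233 for AGR3. RefSeq and GENCODE place the AGR2 start differently, and which start these cells use was not measured.
AGR2: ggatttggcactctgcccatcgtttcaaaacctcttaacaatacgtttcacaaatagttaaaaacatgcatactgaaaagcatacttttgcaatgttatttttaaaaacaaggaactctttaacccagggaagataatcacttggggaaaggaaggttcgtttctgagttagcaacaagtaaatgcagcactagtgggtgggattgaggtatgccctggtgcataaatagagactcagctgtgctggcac
AGR3: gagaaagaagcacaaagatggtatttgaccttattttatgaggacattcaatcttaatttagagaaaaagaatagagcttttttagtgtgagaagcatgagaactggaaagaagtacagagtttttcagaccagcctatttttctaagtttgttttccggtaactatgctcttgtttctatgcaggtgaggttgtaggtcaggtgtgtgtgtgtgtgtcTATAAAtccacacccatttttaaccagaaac
AGR3 held TATAAA 31 to 26 bases before its start and AGR2 held none in this window. Of 35116 promoters in the RefSeq table, 10.7% held this motif in the same window. The core motif of NKX2 factors, CAAGTG, was found in AGR2 (minus strand, 112 to 107 bases before the start) and not in AGR3, and in 9.50% of all promoters. NKX2-1, the lung lineage factor that binds such sites, had 66.5 ± 11.7 TPM in 3D and 62.2 ± 3.52 TPM in 2D (log2 fold change by limma 0.08, SE 0.15, adjusted p = 0.74). The motif of the unfolded protein response, TGACGTG, was in neither window and in 1.68% of all promoters. G+C made up 40.4% of the AGR2 window and 36.4% of the AGR3 window, against a median of 58.0% over all promoters.

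BPIFA1 and BPIFB1 encode lipid-binding proteins of airway surface liquid. BPIFA1, also called SPLUNC1, acts against bacteria and restrains the epithelial sodium channel, and BPIFB1, also called LPLUNC1, is made by mucus-secreting cells. Both lie on the plus strand of chromosome 20, BPIFA1 at 33235995 to 33243311 and BPIFB1 at 33273480 to 33309878, 30.2 kb apart (GENCODE 29, GRCh38).

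BPIFA1 was listed at 0 in all 3 libraries of 2D and had 16.56, 102.8 and 7.53 TPM in 3D replicates 1 to 3. The 3D libraries spanned 13.7-fold, with replicate 2 at 6.21 times the next. BPIFA1 was called higher in 3D (limma adjusted p = 0.0138). Since only its 3D values took it past the filter, a gene with such 2D values had to differ to be tested at all, and the call is given as a description. No fold is given against a group listed at 0. The fitted difference depends on the pseudocount and bounds nothing, being 4.64 on the log2(TPM + 1) scale (SE 0.79), 7.88 with a pseudocount of 0.1 and 2.62 with a pseudocount of 5. The call was lost with no filter (limma, adjusted p = 0.0534) and without 2D replicate 2 (adjusted p = 0.0563). It held under the other 13 settings (adjusted p from 0.00294 to 0.049), among them the one without 3D replicate 2, the highest library (difference 3.61, adjusted p = 0.00777).

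BPIFB1 had 0.57, 6.17 and 0.44 TPM in 3D replicates 1 to 3 and 0, 0.17 and 0 TPM in 2D replicates 1 to 3. The groups did not overlap, but all but 1 of the values were under 1 TPM, and 3D replicate 2 was 10.8 times the next 3D library. The difference was 1.26 on the log2(TPM + 1) scale (limma, SE 0.59, 95% interval -0.12 to 2.64, adjusted p = 0.19), and it passed the test in none of the 13 alternative settings in which the gene passed the filter (adjusted p from 0.113 to 0.337). Without 3D replicate 2 the gene fell below the filter.

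Both BPIF genes were thus highest in the same 3D library. The ratio of BPIFA1 to BPIFB1 was 29.1, 16.7 and 17.1 in 3D replicates 1 to 3, on values as low as 0.44 TPM. A value in 3D replicate 2 of at least 2 times the next 3D library was seen in 1.51% of all tested genes. BPIFB1 passed the filter only through that library, so this share does not tell how unusual its peak was. The other BPIF genes of the cluster that were measured, BPIFA2, BPIFA3, BPIFB2, BPIFB3, BPIFB4 and BPIFB6, all stayed below the filter, with BPIFA2 at 0.21 TPM in 3D replicate 2. The expressed neighbour CDK5RAP1 had 47.5 TPM in 3D and 50.2 TPM in 2D (limma, adjusted p = 0.764).

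**Figure D3:**
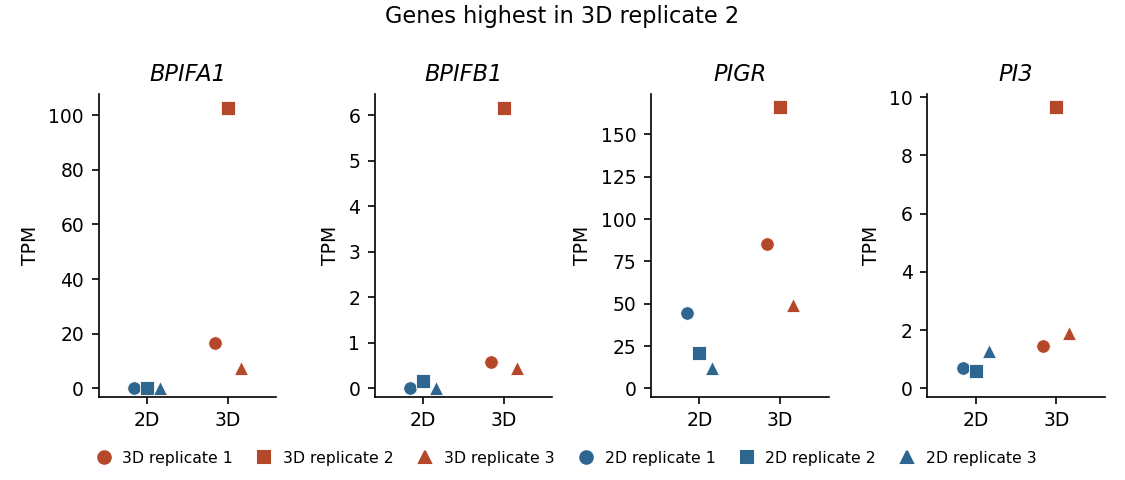
BPIFA1, BPIFB1, PIGR and the related protease inhibitor PI3 in TPM, by group on the horizontal axis, with 1 point for each library and a separate vertical scale for each gene. In all 4 genes 3D replicate 2 is the highest library, at 102.8, 6.17, 166.44 and 9.67 TPM, and PI3 was added after its values were seen.

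The 250 bases before the BPIFA1 and BPIFB1 start sites are shown because these genes share a library pattern and a stretch of sequence. They are RefSeq's on GRCh38.p14, plus strand, chr20:33235746-33235995 for BPIFA1 and chr20:33282964-33283213 for BPIFB1. RefSeq and GENCODE also place the BPIFB1 start differently (GENCODE's gene begins at 33273480), and which start these cells use was not measured. Capitals mark TATAAA and the shared stretch TATTTACNTTGGAGA, the longest ungapped match of these windows with at most 1 mismatch, which was noticed on reading the sequences and then searched on both strands.
BPIFA1: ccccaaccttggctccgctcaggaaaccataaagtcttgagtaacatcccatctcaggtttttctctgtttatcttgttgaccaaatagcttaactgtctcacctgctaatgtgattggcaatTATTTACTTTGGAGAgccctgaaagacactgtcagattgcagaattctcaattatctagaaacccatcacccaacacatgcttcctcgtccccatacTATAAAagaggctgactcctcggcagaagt
BPIFB1: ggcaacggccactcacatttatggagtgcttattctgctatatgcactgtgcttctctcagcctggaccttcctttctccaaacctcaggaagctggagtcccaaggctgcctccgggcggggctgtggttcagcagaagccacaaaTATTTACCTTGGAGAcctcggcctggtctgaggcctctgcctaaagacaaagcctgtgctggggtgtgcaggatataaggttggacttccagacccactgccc
The stretch begins 127 bases before the RefSeq start of BPIFA1 and 103 bases before that of BPIFB1. Of 35116 RefSeq promoters, these were the only 2 (0.0057%) with it in this window. Its letters were taken from these 2 windows, so both had to hold it, and the share is no evidence of a shared element. Paralogs can share sequence by descent, and no measurement of binding is in these data. The stretch holds the forkhead motif TNTTTAC, which was in 2 of the 7 promoters matched among the 10 genes, BPIFA1 and BPIFB1, and in 9.58% of all promoters. In both genes the motif found was the one within the stretch, so it is no separate finding. FOXA1, a forkhead factor of lung epithelium, averaged 67.8 TPM in 3D against 57.4 TPM in 2D (log2 fold change by limma 0.28, adjusted p = 0.468), and FOXA2 had 1.36 and 2.03 TPM (-0.35, adjusted p = 0.312). The NF-kB consensus was in none of the 7 promoters and in 5.21% of all. The entries SCGB1A1, SLPI and TFF3 were not matched.

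PIGR encodes the polymeric immunoglobulin receptor, which carries IgA and IgM from the base to the lumen of an epithelium. It lies at chromosome 1, 206928518 to 206946466, on the minus strand. PIGR had 85.32, 166.44 and 49.12 TPM in 3D replicates 1 to 3 and 44.69, 20.77 and 12.18 TPM in 2D replicates 1 to 3. The groups did not overlap, by a narrow margin between 49.12 TPM in 3D replicate 3 and 44.69 TPM in 2D replicate 1. Within a group the highest library was 3.39 times the lowest in 3D and 3.67 times in 2D. The means were 100.3 ± 60.1 and 25.9 ± 16.8 TPM (SD, n = 3 each), a log2 fold change of 1.93 (limma, SE 0.54, 95% interval 0.68 to 3.18, adjusted p = 0.0558), which did not pass the test. Among the alternative settings the adjusted p ran from 0.0189 to 0.172. It passed at a mean of at least 5 TPM (0.0499), without 3D replicate 3 (0.0367), without 2D replicate 1 (0.0461), and with both libraries numbered 3 removed (0.0189).

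The genes that supply the cargo of this receptor were close to absent. The antibody joining chain JCHAIN reached at most 0.13 TPM and the IgA heavy chain IGHA1 at most 0.32 TPM. FCMR and FCAMR, Fc receptors beside PIGR on chromosome 1, had means of 1.84 and 0.437 TPM in 3D and 1.72 and 0.19 TPM in 2D. Of 16 genes of the transport route through the epithelium, all were tested, 2 rose, none fell and 14 passed in neither direction, with a median log2 fold change of 0.13 beside 0.12 over all tested genes. RAB11FIP1, an effector of recycling endosomes, rose from 22.1 ± 4.14 to 50.6 ± 14.0 TPM (log2 fold change by limma 1.13, SE 0.24, adjusted p = 0.0248). RAB5A, a regulator of early endosomes, rose from 36.1 ± 2.32 to 50.4 ± 3.54 TPM (0.47, SE 0.12, adjusted p = 0.0477). The first call was lost with no filter and when 3D replicate 1 or 2, or 2D replicate 2, was left out (adjusted p by limma up to 0.1), and the second in 10 of the 15 settings (adjusted p up to 0.18), among them both rescalings and each single library left out but 3D replicate 3.

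SLPI encodes the secretory leukocyte protease inhibitor, which protects the airway surface from neutrophil elastase. It lies at chromosome 20, 45252239 to 45254564, on the minus strand, in a cluster of genes with the same WAP domain. SLPI had 52.01, 58.5 and 43.36 TPM in 3D replicates 1 to 3 and 79.66, 57.18 and 37.04 TPM in 2D replicates 1 to 3. The 3D libraries lay wholly within the range of the 2D libraries. The means were 51.3 ± 7.60 and 58.0 ± 21.3 TPM (SD, n = 3 each), a log2 fold change of -0.12 (limma, SE 0.27, 95% interval -0.74 to 0.51, adjusted p = 0.791). The value was 0.14 without 2D replicate 1, the highest library, and it passed the test in none of the 15 settings (adjusted p from 0.198 to 0.994).

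Relatives of SLPI with the same domain did rise. WFDC2, a secreted protein also known as HE4, had 61.85, 94.59 and 40.28 TPM in 3D replicates 1 to 3 and 11.65, 12.15 and 12.58 TPM in 2D replicates 1 to 3. The groups were well apart (log2 fold change by limma 2.26, SE 0.28, adjusted p = 0.00433). WFDC3 rose from 14.7 ± 5.39 to 58.8 ± 7.75 TPM (1.97, SE 0.24, adjusted p = 0.0043). Both calls held in all 15 settings. PI3, the elastase inhibitor elafin, had 1.44, 9.67 and 1.90 TPM in 3D and 0.71, 0.60 and 1.27 TPM in 2D (log2 fold change by limma 1.20, adjusted p = 0.169).

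Of 26 relatives of the 10 genes in the BPIF, secretoglobin, disulfide isomerase, WAP and trefoil families, 5 were tested, of which WFDC2 and WFDC3 rose and 3 did not pass the test. TXNDC12, a further disulfide isomerase related to AGR2, had 136 TPM in 3D and 212 TPM in 2D (log2 fold change by limma -0.59, adjusted p = 0.136). Its groups overlapped through 2D replicate 3 (138.67 TPM), while 2D replicates 1 and 2 had 235.97 and 262.64 TPM, above every 3D library. SCGB2A1, mammaglobin B, was the only secretoglobin outside the 10 genes that passed the filter, with 3.12, 0.76 and 0.40 TPM in 3D and 4.77, 4.58 and 0.36 TPM in 2D (-0.70, adjusted p = 0.477).

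The secretoglobins among the 10 genes are small secreted proteins of club cells and other airway secretory cells. SCGB1A1, the classical club cell protein, had 0.46, 0.37 and 0 TPM in 3D replicates 1 to 3 and 0, 0.14 and 0 TPM in 2D. SCGB3A1 had 0.25, 0 and 0.13 TPM in 3D and 0.53, 0 and 0 TPM in 2D. SCGB3A2 had 0.15, 0 and 0.33 TPM in 3D and 0.16, 0 and 0 TPM in 2D. All 3 genes were listed at 0 in 3 of the 6 libraries, their groups overlapped, and none entered the test. TFF3, a trefoil peptide that goblet cells release with mucin, was listed at 0 in all 6 libraries, and TFF1 and TFF2 reached at most 0.71 and 0.35 TPM. In a fit with no filter the 3 secretoglobins had differences between -0.04 and 0.27 on the log2(TPM + 1) scale (limma, adjusted p from 0.405 to 0.923). SCGB3A2 overlaps C5orf46 and SCGB1A1 overlaps an antisense gene, and since the strand setting of the counting is not given in the sources used here, reads of overlapping genes cannot be told apart.

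Markers of airway cell types differed from list to list. Of 8 club cell markers, which include BPIFA1 and BPIFB1, CYP2F1 and the 3 secretoglobins were under 1 TPM in every library, and the summed level, mostly the mucin MUC5B, was 118 to 241 TPM in 3D and 148 to 258 TPM in 2D. In 3D replicate 2, the highest 3D sum, BPIFA1 supplied 102.8 TPM and MUC5B 131.24 TPM. MUC5B averaged 123 TPM in 3D and 203 TPM in 2D, with every 3D library below every 2D library (log2 fold change by limma -0.70, adjusted p = 0.0819). Goblet cell markers summed to 21.9 to 40.1 TPM in 3D and 36.0 to 79.2 TPM in 2D, with CLCA1, TFF3 and ATOH1 listed at 0, and among the 4 tested MUC5AC fell and none rose. MUC5AC passed the filter only through its 2D values, so its call supports nothing further. Ciliated cell markers summed to 63.8 to 90.2 TPM in 3D and 26.8 to 74.9 TPM in 2D. Of 7 tested, TPPP3 rose (log2 fold change by limma 2.55, adjusted p = 0.00396) and FOXJ1, the regulator of motile cilia, had 5.71 TPM in 3D and 7.86 in 2D (adjusted p = 0.835). Basal cell markers summed to 73.9 to 77.5 TPM in 3D and 54.7 to 141 TPM in 2D, mostly KRT15, with KRT5 at most 0.11 TPM. Of 2 tested, TP63 rose (log2 fold change by limma 2.10, adjusted p = 0.00415). The other, KRT15, had 66.5 TPM in 3D and 90.8 TPM in 2D (-0.33, adjusted p = 0.488). Alveolar type II cell markers summed to 1217 to 1688 TPM in 3D and 269 to 422 TPM in 2D, and 4 of 7 tested rose, with SFTPC at most 0.78 TPM. In bulk RNA, more cells of a type and more RNA per cell cannot be told apart.

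Markers of cells that a tumour line should lack were low. Neuroendocrine markers summed to at most 0.21 TPM in any library, plasma and B cell markers to at most 2.15 TPM (with IGHA2 and TNFRSF17 listed at 0) and endothelial markers to at most 2.35 TPM. The leukocyte genes PTPRC and CD3E reached at most 0.25 and 0.08 TPM; the leukocyte sum of 49.5 to 99.3 TPM was mostly CD68, a lysosomal protein that is not restricted to leukocytes. Fibroblast markers summed to 6.98 to 12.0 TPM in 3D and 2.10 to 2.95 TPM in 2D, mostly COL1A1, with COL3A1 listed at 0 and COL1A2 at most 0.01 TPM. Of the 6 fibroblast markers only COL1A1 was tested, and it rose (log2 fold change by limma 1.33, adjusted p = 0.017). COL1A1 moved in the same direction as AGR3, and its part in that result was not tested.

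Other secreted defence proteins showed no common direction. Of 24 genes 16 were tested, 1 rose, 3 fell and 12 passed in neither direction, with a median log2 fold change of 0.33 beside 0.12 over all tested genes. DEFB1, an epithelial defensin, fell from 13.3 ± 2.17 to 4.30 ± 0.508 TPM (log2 fold change by limma -1.43, SE 0.17, adjusted p = 0.00396), a call that held in all 15 settings. MUC5AC, the gel-forming mucin of goblet cells, fell from 3.14 ± 0.407 to 0.977 ± 0.430 TPM (-1.08, SE 0.23), and C3, the central complement protein, from 9.93 ± 2.37 to 4.60 ± 0.803 TPM (-0.95, SE 0.21). Only its 2D values took MUC5AC past the filter, so its call is given as a description. RNASE4, a secreted ribonuclease, rose from 6.57 ± 2.22 to 17.0 ± 0.355 TPM (1.3, SE 0.23). The MUC5AC call was lost with no filter and when 3D replicate 1 or 2, or 2D replicate 1 or 2, was left out (adjusted p by limma up to 0.0995). The C3 call was lost with no filter and without any single library but 2D replicate 2 (up to 0.113), and the RNASE4 call with no filter and when 3D replicate 1 or 2 was left out (up to 0.0686). LCN2, the iron-scavenging lipocalin, was more abundant than AGR2, with 2040.66 to 4087.14 TPM in 3D and 2069.18 to 4740.10 TPM in 2D (0.11, adjusted p = 0.867).

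Among other protease inhibitors and the neutrophil proteases they act on, 11 of 15 were tested, 3 rose, none fell and 8 passed in neither direction, with a median of -0.07. SERPINA3, an inhibitor of neutrophil cathepsin G, had 67.37, 86.65 and 61.21 TPM in 3D replicates 1 to 3 and 6.12, 7.38 and 10.81 TPM in 2D replicates 1 to 3. The groups were far apart (log2 fold change by limma 3.02, SE 0.22, adjusted p = 5e-04), and the call held in all 15 settings. SPINK1, a trypsin inhibitor, rose from 41.0 ± 9.75 to 118 ± 37.5 TPM (1.49, SE 0.26). That call was lost with no filter and when replicate 2 of either group was left out (adjusted p by limma up to 0.0598). SERPINA1, the main inhibitor of neutrophil elastase in plasma, rose from 97.1 ± 6.91 to 176 ± 38.5 TPM (0.83, SE 0.17). That call was lost with no filter, with median-ratio scaling, and when 3D replicate 1 or 2, or 2D replicate 1 or 2, was left out (up to 0.0754). The proteases ELANE and CTSG were listed at 0 in every library.

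Of 20 transcription factors of secretory cells 17 were tested, 5 rose, 1 fell and 11 passed in neither direction, with a median of 0.30. SOX9, a factor of distal lung progenitors and airway glands, had 11.43, 13.01 and 10.43 TPM in 3D replicates 1 to 3 and 0.21, 0.27 and 0.21 TPM in 2D replicates 1 to 3. It showed little spread within either group (log2 fold change by limma 3.35, SE 0.17, adjusted p = 0.000145). Only its 3D values took SOX9 past the filter, so its call is given as a description. Its fitted difference depends on the pseudocount, being 5.15 with a pseudocount of 0.1 and 1.67 with a pseudocount of 5. CEBPD, a factor of the acute-phase response, rose from 43.3 ± 12.6 to 115 ± 16.6 TPM (1.42, SE 0.22, adjusted p = 0.0102). The calls of SOX9 and CEBPD held in all 15 settings, that of SOX9 under the limit given above. XBP1, which drives expansion of the secretory apparatus, rose from 68.4 ± 18.7 to 127 ± 12.7 TPM (0.92, SE 0.21). That call was lost with no filter, with median-ratio scaling, and when 3D replicate 1 or 2, or 2D replicate 2, was left out (adjusted p by limma up to 0.121). HES1, a target of Notch signalling, fell from 81.8 ± 21.6 to 36.2 ± 4.20 TPM (-1.12, SE 0.21). That call was lost with no filter and when 3D replicate 1 or 2, or 2D replicate 1 or 2, was left out (up to 0.0795). SPDEF, the factor of goblet cell differentiation that acts upstream of AGR2, had 16.29, 13.92 and 34.20 TPM in 3D replicates 1 to 3 and 54.48, 43.92 and 32.09 TPM in 2D replicates 1 to 3 (-1.06, adjusted p = 0.079). The groups overlapped only through the libraries numbered 3, and no fit of SPDEF without them is given.

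The 28 genes listed for folding in the endoplasmic reticulum include isomerases, chaperones and retrieval receptors. Of these, 26 were tested, 3 rose, none fell and 23 passed in neither direction, with a median of 0.37 beside 0.12 over all tested genes. The count of 3 is near the share of 10.2% called higher over all tested genes. ERO1A, the oxidase that recharges disulfide isomerases, rose from 137 ± 50.5 to 370 ± 92.3 TPM (log2 fold change by limma 1.46, SE 0.28, adjusted p = 0.0184). TXNDC11, a thioredoxin domain protein, rose from 18.8 ± 1.55 to 31.7 ± 0.738 TPM (0.72, SE 0.12), and SEL1L, an adaptor of protein degradation from this compartment, from 20.3 ± 1.35 to 33.5 ± 5.82 TPM (0.68, SE 0.15). The ERO1A call was lost with no filter and when 3D replicate 2, or 2D replicate 1 or 2, was left out (adjusted p by limma up to 0.076). The TXNDC11 call was lost when 3D replicate 1 or 2 was left out (up to 0.0719). The SEL1L call was lost with no filter, with either rescaling, and when 3D replicate 1 or 2, or 2D replicate 1 or 2, was left out (up to 0.109).

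**Figure D4:**
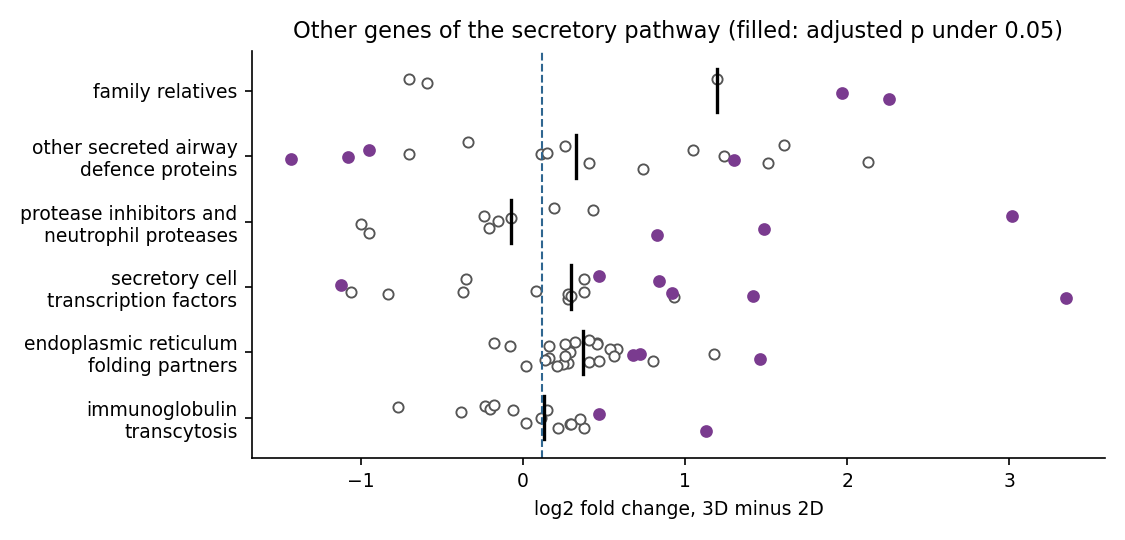
Log2 fold change (3D minus 2D) of the tested genes of 6 lists, with 1 point for each gene, filled where adjusted p was under 0.05, black lines at the list medians and a dashed line at the median of all tested genes (0.12). Calls in 3D number 16 higher and 4 lower among 91 tested genes. SOX9 at 3.35 and SERPINA3 at 3.02 lie farthest to the right and DEFB1 at -1.43 farthest to the left. SOX9 passed the filter only through its 3D values and MUC5AC only through its 2D values.

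Over the 6 lists, which hold 129 genes, 91 were tested, with 16 called higher, 4 called lower and 71 called in neither direction. Over all tested genes 12.3% were called in either direction, with 10.2% higher and 2.12% lower. These shares stand beside the count of each list above as well. The median of the 91 genes was 0.28 beside 0.12 over all tested genes.

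Among the genes whose pattern over the 6 libraries was most like that of AGR2, out of 8073 other protein-coding genes averaging 10 TPM or more, were DHRS3 and CCDC159. Their centred log2(TPM + 1) profiles differed from that of AGR2 by a root mean square of 0.189 and 0.199. DHRS3, a retinal reductase, had 79.36, 90.86 and 112.21 TPM in 3D replicates 1 to 3 and 139.32, 123.81 and 36.06 TPM in 2D replicates 1 to 3. It shared with AGR2 the highest 3D value in replicate 3 and the lowest 2D value in replicate 3. The nearest to BPIFA1 were TNS1, NR4A1 and TREM1, at 0.843, 0.950 and 0.960, all highest in 3D replicate 2 as well. All these genes were chosen for closeness over the same libraries. A shared highest or lowest library therefore follows largely from the choice.

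**Figure D5:**
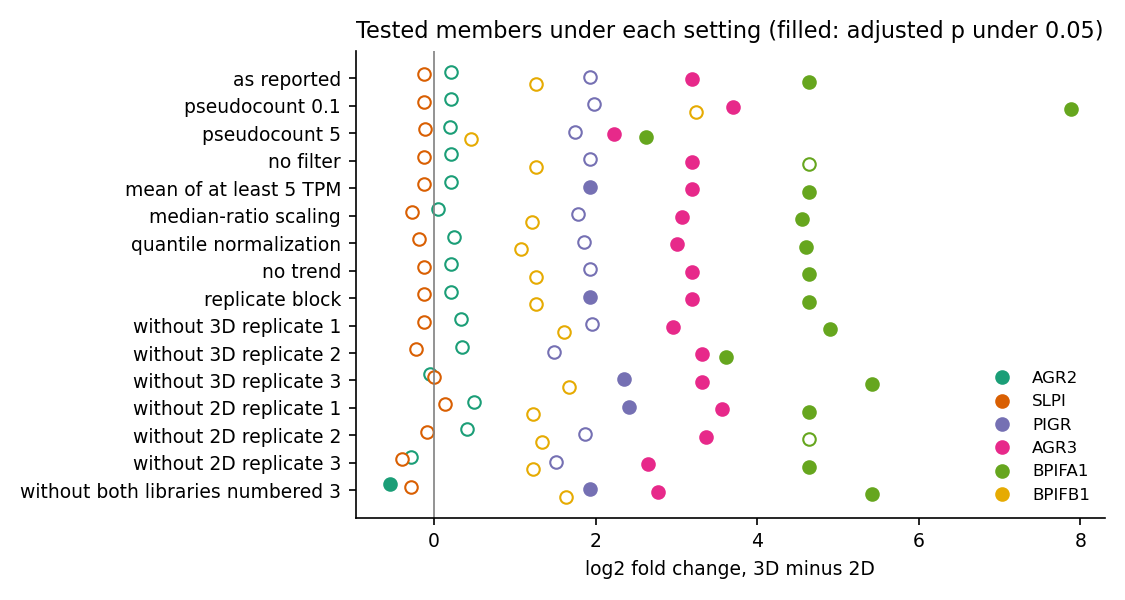
Log2 fold change (3D minus 2D, horizontal axis) of the 6 tested genes as reported and under each of 15 alternative settings, with 1 point for each gene and setting, filled where adjusted p was under 0.05. AGR3 is filled in every row, AGR2 lies on both sides of 0 and is filled at -0.55 without both libraries numbered 3, and BPIFA1 moves from 2.62 to 7.88 with the pseudocount.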

How the data were processed

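Poly(A) RNA of 6 HCC827 libraries, 3 for each culture, was sequenced as single-end reads from directional libraries, per the labels' protocols. The authors deposited 1 table of TPM for each gene and library, rounded to 2 decimals. The submitters' processing notes name cutadapt 2.3, STAR 2.7.0d, RSEM 1.3.1 and hg38, with no role or order. Annotation release, strand setting and filters: not given in the sources used here. TPM is a share of each library, so a rise of some genes lowers the others.

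Groups came from the sample titles. For the 15042 genes whose mean reached 1 TPM, log2(TPM + 1) was compared in limma 3.58.1 in R 4.3.3 (lmFit, eBayes with a trend). P-values are two-sided, adjusted by Benjamini-Hochberg over these genes, with a threshold of 0.05. Fold changes on this scale understate the change of low genes. No exact test was used, since with 3 against 3 its smallest p is 0.1. The fit was tested on simulated data.

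The 10 genes, 6 pathway lists and 11 marker lists were chosen with earlier results of these data known. Named genes of a pathway list were the called genes of largest change, at most 3 in the direction with more calls and 1 in the opposite one, and genes of like pattern were the 3 nearest by root mean square difference for the most abundant and the most changed gene. Named neighbours, relatives and markers, and TXNDC12, SCGB2A1, PI3, LCN2, SPDEF, FOXA1, FOXA2 and NKX2-1, were named outside that rule after their values were seen. A few genes that these rules name are not reported here. Positions came from GENCODE 29, and promoters from RefSeq on GRCh38.p14, with 7 of 10 genes matched by symbol. Results were recomputed under 14 other settings and 1 added after seeing the data (other pseudocounts, filters, scalings, no trend, a replicate block, libraries left out). Figures used matplotlib 3.10.9 in Python 3.11.15.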

Additional observations from a re-analysis of the deposited data

How the results depend on the processing

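The count of the 10 genes called higher in 3D was 2 as reported. It was 1 with no filter, where BPIFA1 was lost, and 1 to 3 with each library left out; none was called lower except 1 (AGR2) without both libraries numbered 3, a setting chosen after seeing the data. AGR2, at 0.21 as reported, ranged from -0.29 to 0.49 with each library left out (-0.05 if 3D replicate 3, -0.29 if 2D replicate 3) and was -0.55 without both libraries numbered 3. SLPI ranged from -0.4 to 0.14, the latter without 2D replicate 1; in these cases removing libraries is what changed the value. Over all genes, calls numbered 729 higher and 86 lower with no filter, 971 and 612 with median-ratio scaling, 869 and 576 with quantile normalization, and 2464 and 1356 without both libraries numbered 3. Leaving out 1 library gave 367 to 1607 higher and 29 to 563 lower. Among the other genes of the secretory pathway, calls numbered 7 higher and 1 lower with no filter, 28 and 12 without both libraries numbered 3, and 5 to 17 higher and 1 to 8 lower with 1 library left out. Apart from the values just given, the cause of these changes was not tested.

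With the replicate number as a block, 3 of the 10 genes were called higher, PIGR being the addition (limma, adjusted p = 0.0194), and 1479 genes were higher and 395 lower over all. The numbers are not said to pair the libraries: deviations of same-numbered libraries from their group means correlated across genes at 0.101, 0.0365 and 0.185, and 3D replicate 1 correlated more with 2D replicate 2 (0.127) than with 2D replicate 1. TPM keeps no depth, so values under 1 TPM carry no counting interval.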

Other observations

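Some genes beside the secretory genes, named here after their values were seen, differed between the cultures. SDC4, a heparan sulfate proteoglycan of the cell surface near SLPI on chromosome 20, had 239.25, 218.19 and 221.72 TPM in 3D replicates 1 to 3 and 96.05, 106.76 and 97.83 TPM in 2D replicates 1 to 3 (log2 fold change by limma 1.17, adjusted p = 0.00204). Near PIGR on chromosome 1, the deubiquitinase gene YOD1 was at 4.76 TPM in 2D and rose to 10.6 TPM in 3D (log2 fold change by limma 1.00, adjusted p = 0.0154) and C1orf116 fell from 31.9 to 13.5 TPM (-1.17, adjusted p = 0.0172). The cytokine genes IL19, IL20 and IL24 of the same region did not pass the filter, but their groups did not overlap. How often genes below the filter separate in this way was not computed. IL19 had 0.47, 0.5 and 0.31 TPM in 3D and 0, 0.05 and 0 TPM in 2D. IL20 had 1.04, 0.44 and 0.5 TPM in 3D and 0, 0 and 0.13 TPM in 2D. IL24 had 1.95, 1.32 and 0.79 TPM in 3D and 0.50, 0.48 and 0.35 TPM in 2D. ASRGL1, an asparaginase gene near SCGB1A1 on chromosome 11, fell from 105 to 51.4 TPM (log2 fold change by limma -0.98, adjusted p = 0.049). That value is just under the threshold of 0.05. The calls of SDC4, YOD1, C1orf116 and ASRGL1 are not given under the alternative settings.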
